A study of Sus scrofa with 12 samples.

Results

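The genes described here are those of the mitochondrial respiratory chain, of ATP synthase and of complex I assembly, measured in the hypothalamus of pigs of high and low feed efficiency, a measure of how much growth an animal makes from its feed. They were chosen by gene symbol alone: every probe set whose symbol began with NDUF, COX4, COX5, COX6, COX7, COX8, UQCR or ATP5, or was that of a succinate dehydrogenase subunit, of cytochrome c1 or of cytochrome c. This gave 98 probe sets of 61 genes, out of 47845 rows and 13664 named genes on the array. Each gene was represented by its brightest probe set, so 39 genes rested on the 1 probe set they had and 22 on 1 of several. The genes comprised 26 subunits of complex I, 3 of complex II, 2 of complex III, 8 of complex IV, 14 of complex V, the 4 complex I assembly factors NDUFAF1 to NDUFAF4 and 4 other genes. Further subunits that carry no symbol in the platform annotation, which is an old one, are not analysed here.

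Complexes I to IV of the inner mitochondrial membrane pass electrons from NADH and succinate to oxygen, all but complex II pump protons as they do so, and complex V, the ATP synthase, uses the proton gradient to make ATP. Complex I is put together from many subunits with the help of assembly factors that are absent from the finished enzyme. Neurons depend heavily on this pathway for the ATP that restores ion gradients, and the hypothalamus, which controls feeding and energy balance, is a tissue of neurons and glia.

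All 12 pigs (Sus scrofa) were 140 days old, and total RNA from the hypothalamus of each was hybridised to 1 Affymetrix Snowball array, a whole-transcript pig array. The labels give 6 pigs of high and 6 of low feed efficiency, with 3 males and 3 females in each group. Pigs are numbered 1 to 6 in each group in the order of the series, 1 to 3 being male and 4 to 6 female, and the numbers do not pair pigs. The labels name no breed, diet, litter or castration status, nor the measure and the cut by which pigs were called high or low. The pig identifiers fell into 2 runs: the lower one held all 6 males and 2 of the females, and the higher one 4 females. What the runs stand for is not stated, but each held as many high as low pigs, so differences are also given within them. In each run, however, the identifiers of all high pigs came before those of all low pigs. Identifier order is thus not separate from feed efficiency, and a difference within a run does not set it aside.

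Values are log2 signals as deposited. Array medians lay between 4.35 and 4.42 and correlations between arrays between 0.974 and 0.982. Signal without a specific target is gauged by 69 background probe sets. Their means ran from 1.30 to 7.49 with a median of 2.35, so a gene with a mean above 7.49 stood clear of all of them and a dimmer one may partly carry background signal. Of 11 marker genes of the hypothalamus, 6 stood above that range, with OXT, the gene of oxytocin, brightest at 11.80. None of 6 skeletal or cardiac muscle, 4 choroid plexus or 4 red blood cell markers did.

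Of the 61 genes, 28 stood above the background range. These were 14 of 26 genes of complex I, 2 of 3 of complex II, 1 of 2 of complex III, 4 of 8 of complex IV, 5 of 14 of complex V, NDUFAF3 and ATP5SL. The brightest was ATP5B, the catalytic beta subunit of ATP synthase, at 11.16 ± 0.07 in high and 11.19 ± 0.09 in low pigs (SD, n = 6 each). ATP5A1, the alpha subunit that forms the catalytic head together with it, followed at 10.42 ± 0.09 and 10.47 ± 0.04 (SD, n = 6 each). A signal also depends on how well a probe set binds, so these values do not rank genes by transcript amount.

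**Figure D1:**
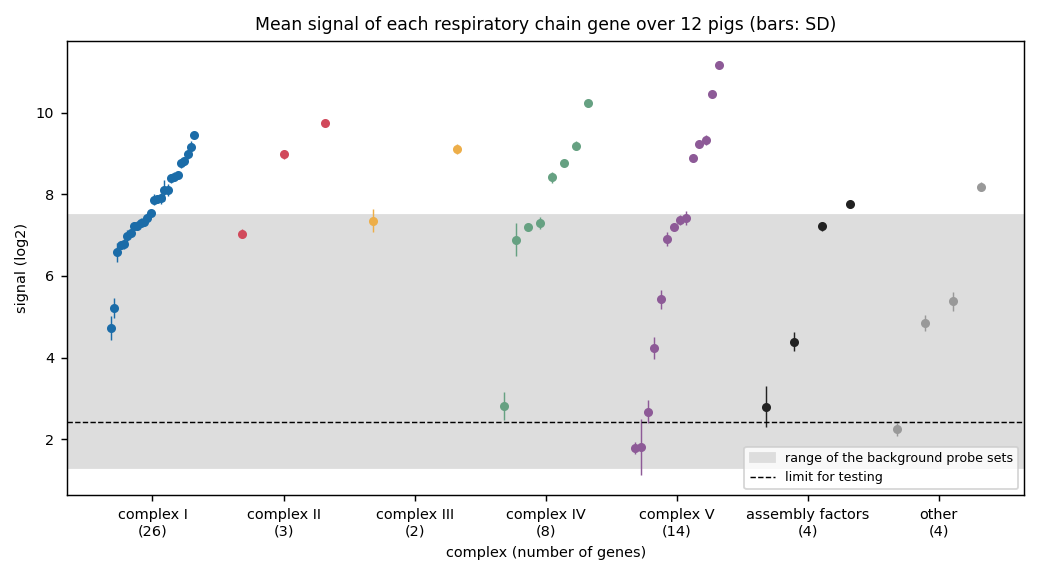
Mean log2 signal of each of the 61 genes over 12 pigs, grouped by complex on the horizontal axis, with bars for the SD over pigs. The grey band is the range of the background probe sets, 1.30 to 7.49, and 28 genes lie above it; the dashed line is the limit of 2.43 below which a gene was not tested.

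Within complex I the brightest probe set was that of NDUFB8, an accessory subunit of the membrane arm, at 9.45 over all pigs, and the dimmest that of NDUFA1, another accessory subunit, at 4.72. All 3 core subunits held by the table, NDUFS1, NDUFS7 and NDUFV2, lay above the background range. In complex II, SDHA, the flavoprotein that oxidises succinate, stood at 9.76 and SDHD, a membrane anchor of the complex, at 7.03. UQCR10 and UQCRB, both small subunits of complex III, stood at 9.11 and 7.35. In complex IV, COX6A1 was brightest at 10.23 and NDUFA4, once counted with complex I, dimmest at 2.81. In complex V, ATP5H, a subunit of the peripheral stalk, lay below the limit for testing at 1.79, as did ATP5I at 1.81. CYCS, the gene of the electron carrier cytochrome c, lay below it too at 2.24, so 58 of the 61 genes were tested.

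Of the subunit pairs in which 1 paralogue is known for a particular tissue or oxygen condition, 2 could be set side by side. COX7A1, in other mammals the isoform of heart and skeletal muscle, stood at 7.27 ± 0.17 in high and 7.33 ± 0.13 in low pigs, and COX7A2, the widely expressed one, at 8.76 ± 0.07 and 8.77 ± 0.04 (SD, n = 6 each). COX7A2 thus lay above the background range and COX7A1 within it, while the brightest muscle marker, TNNI2, stood at 6.63. NDUFA4L2, a paralogue of NDUFA4 known from human and mouse cells to be induced by low oxygen, stood at 5.42 ± 0.28 and 5.34 ± 0.20 (SD, n = 6 each). NDUFA4 itself stood at 2.83 ± 0.37 and 2.80 ± 0.33 (SD, n = 6 each), so both lay within the background range.

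The question the groups address is which hypothalamic transcripts go with feed efficiency. No respiratory chain gene passed the adjusted threshold between low and high pigs. Differences are written as low minus high, so a positive one means a higher signal in pigs of low feed efficiency. By limma with sex as a term and adjustment over all 35791 tested probe sets, 0 of the 58 genes passed, the smallest adjusted p being 0.714, and the background was 0.0% of all probe sets. At an unadjusted p under 0.05, 4 of 58 genes were called, against 5.49% of the 12561 named genes tested. Of the 4, 3 were higher in low pigs, against 2.52% of all genes, and 1 was lower, against 2.97%. These 4 are the complex I assembly factors NDUFAF4 and NDUFAF2, the complex IV subunit COX7C and the ATP synthase subunit ATP5O, all of them within the background range. By brightest probe set, 0 of the 28 genes above that range were called at this level, against 69 of 2736 named genes above it. Over all 90 tested probe sets of these genes 6 were called, against 2201 of all 35791. They included a second probe set of COX6C, at 9.03, with a difference of 0.35 (limma unadjusted p = 0.0145). Another was a second probe set of NDUFS7 at 7.79, with -0.18 (limma unadjusted p = 0.0455), and both lay above the background range.

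The differences of the whole pathway centred on 0. Signals were higher in low pigs for 34 genes and lower for 24, with a median difference of 0.01, against -0.002 over all named genes. The median size of a difference, whatever its sign, was 0.045 over the 58 genes. It was 0.084 over all named genes and 0.058 over those above the background range. For 56 of the 58 genes the 95% interval excluded a difference of 1.5-fold (0.585 on the log2 scale) in either direction, which held for 88.8% of all named genes. Only the intervals of COX7C and NDUFAF2 reached past it. Intervals of dim genes cover the measured signal, and a transcript difference under background signal would be compressed in it.

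**Figure D2:**
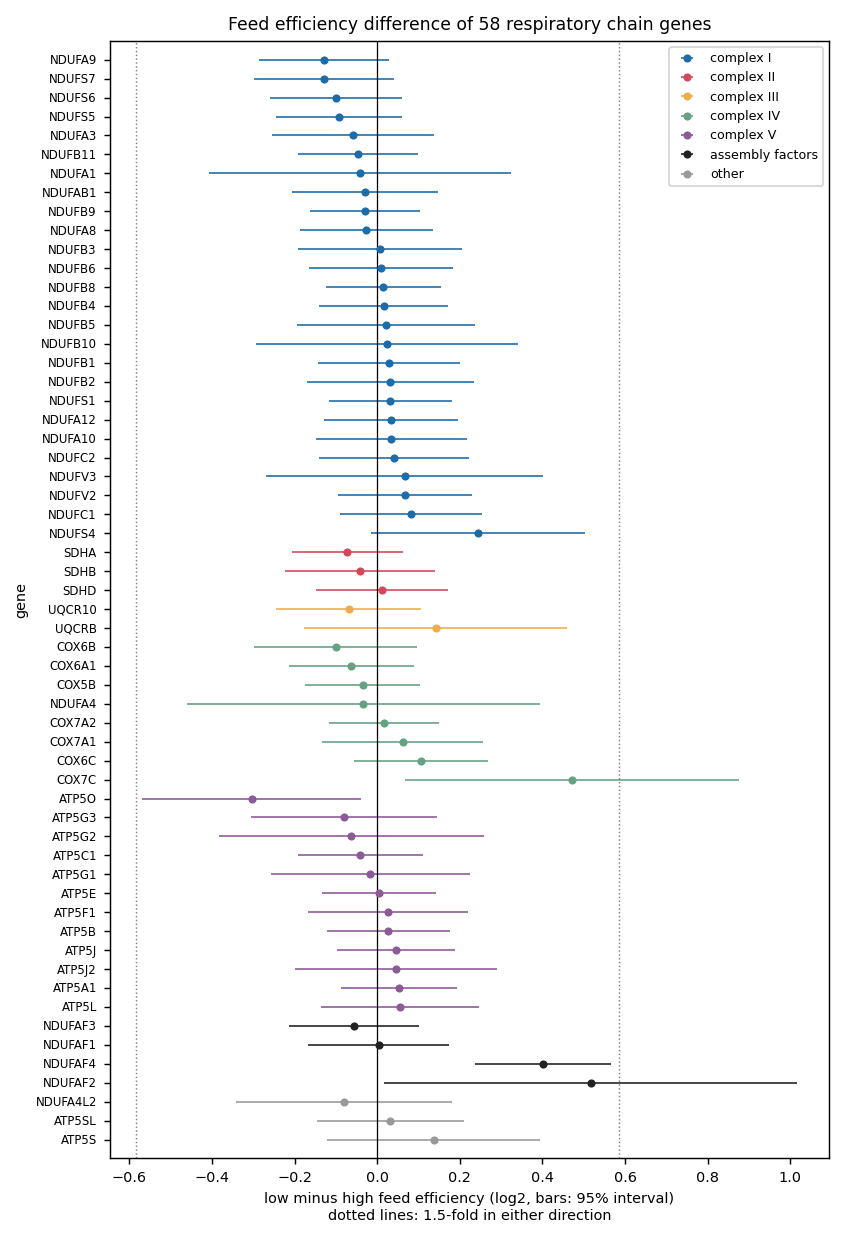
Difference in log2 signal, low minus high feed efficiency, of the 58 tested genes with 95% intervals from limma (6 pigs per group, sex as a term), coloured by complex. Most points lie close to 0, and only the intervals of COX7C and NDUFAF2 extend past the dotted line at 1.5-fold.

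The assembly factors held the clearest separation. NDUFAF4, which acts in the early assembly of the arm of complex I that reaches into the matrix, had signals from 4.04 to 4.38 with a median of 4.18 in the high group and from 4.52 to 4.74 with a median of 4.57 in the low group. Every low pig was above every high pig, and NDUFAF4 was the 1 gene among the 58 of which this held; of all named genes tested, 29 or 0.231% had groups that did not overlap. Means were 4.19 ± 0.12 and 4.59 ± 0.08 (SD, n = 6 each), and differed by 0.40 ± 0.08 (SE; limma adjusted p = 0.714). The difference was 0.40 in males and 0.40 in females, 0.43 within the lower run of identifiers (4 against 4 pigs) and 0.35 within the higher run (2 against 2 pigs). Leaving out each pig in turn, it lay between 0.37 and 0.45 and kept an unadjusted p under 0.05 in 12 of 12 fits. Groups that do not overlap stay apart when 1 pig is left out, so these fits are no further test of the difference. The signal lay far below the upper end of the background range, and the second probe set named NDUFAF4, with a mean of 1.86 and below the limit for testing, differed by 0.01 only.

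NDUFAF2, which helps to join the parts of complex I late in assembly, was very dim. Its signals ran from 1.87 to 3.02 with a median of 2.62 in the high group and from 2.66 to 3.72 with a median of 2.89 in the low group, and the groups overlapped. The difference of 0.52 ± 0.23 (SE; limma adjusted p = 0.802) was the largest of the 58 genes in size, as was its spread among pigs of the same group and sex, 0.45. It was 0.22 within the lower and 1.1 within the higher run of identifiers, and between 0.39 and 0.64 with 1 pig left out. The unadjusted p stayed under 0.05 in 4 of those 12 fits, those without high pig 1 or 4 or low pig 1 or 2.

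The other assembly factors, which were brighter, had nearly equal signals in both groups. NDUFAF1, part of the machinery that builds the membrane arm, ranged from 7.14 to 7.32 in high and from 7.10 to 7.45 in low pigs, with a difference of 0.00 ± 0.08 (SE; limma adjusted p = 0.995). NDUFAF3, the partner of NDUFAF4 in the same assembly step, ranged from 7.64 to 7.93 and from 7.57 to 7.79, with a difference of -0.06 ± 0.07 (SE; limma adjusted p = 0.905). The median difference of 0.20 over the 4 factors thus lay between a dim pair that stood higher in low pigs and a brighter pair that did not. Of the low pigs, 6 of 6 lay above the high mean for NDUFAF4 and for NDUFAF2, 2 of 6 for NDUFAF1 and 1 of 6 for NDUFAF3.

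**Figure D3:**
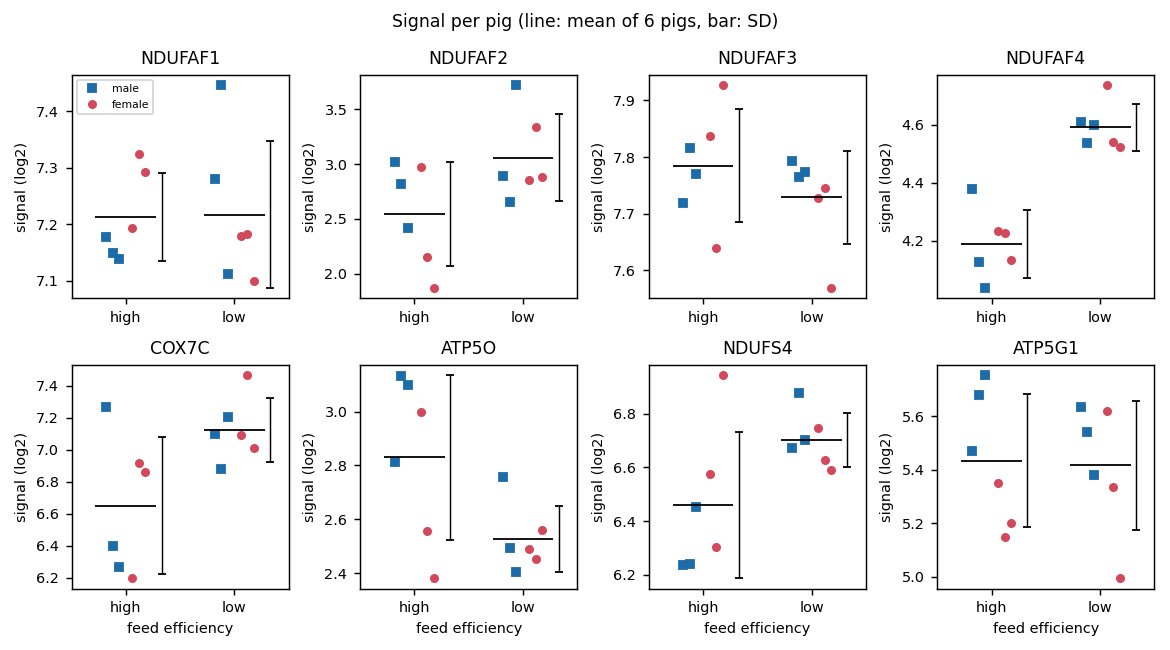
Log2 signal of each pig for the 4 NDUFAF genes, COX7C, ATP5O, NDUFS4 and ATP5G1, by feed efficiency group, with squares for males, circles for females, lines for the mean of 6 pigs and bars for the SD; each panel has its own axis. The groups are apart for NDUFAF4 only, between 4.38 and 4.52.

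Among the 26 subunits of complex I, 16 were higher and 10 lower in low pigs, with a median difference of 0.02. By brightest probe set, 0 were called even without adjustment. NDUFS4, an accessory subunit near the NADH-oxidising end whose loss in mice causes an encephalopathy of the Leigh type, stood furthest to the positive side. Its signals ran from 6.24 to 6.95 with a median of 6.38 in the high group and from 6.59 to 6.88 with a median of 6.69 in the low group. All 6 low pigs lay above the high mean, but high pig 6 had the highest signal of all. The difference was 0.24 ± 0.12 (SE; limma adjusted p = 0.813). It was 0.37 within the lower run of identifiers and -0.01 within the higher one, and 0.34 without high pig 6. NDUFC1, a small membrane arm subunit, followed with 0.08 ± 0.08 (SE).

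On the negative side stood NDUFA9, NDUFS7, NDUFS6 and NDUFS5. NDUFS7, which carries the last iron-sulfur cluster before ubiquinone, had means of 9.04 ± 0.11 in high and 8.91 ± 0.11 in low pigs (SD, n = 6 each), and NDUFA9, which lies close to the ubiquinone site, 8.45 ± 0.09 and 8.32 ± 0.11 (SD, n = 6 each). Both differed by -0.13, with limma adjusted p = 0.819 for each, and 1 of 6 low pigs lay above the high mean in each case. The other 2 probe sets of NDUFS7, at 7.79 and 6.60, differed by -0.18 and 0.13, and the average of all 3 by -0.06. NDUFS6 and NDUFS5, both accessory subunits, differed by -0.10 ± 0.07 and -0.09 ± 0.07 (SE), and the difference was -0.18 in males for both and near 0 in females. NDUFS7 and NDUFA9 lay above the background range, and their differences were about as large as the SD within a group.

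In complex II, SDHA stood at 9.79 ± 0.06 in high and 9.72 ± 0.06 in low pigs (SD, n = 6 each). None of the 6 low pigs lay above the high mean, yet the difference of -0.07 ± 0.06 (SE; limma adjusted p = 0.853) was small, and the groups overlapped. The other 3 probe sets of SDHA, all above the background range, had differences from -0.07 to -0.002. SDHB, the iron-sulfur subunit, differed by -0.04 ± 0.08 and SDHD by 0.01 ± 0.07 (SE). In complex III, UQCR10 differed by -0.07 ± 0.08 and UQCRB by 0.14 ± 0.15 (SE).

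In complex IV, COX7C, a small subunit encoded in the nucleus as are all complex IV genes here, had signals from 6.20 to 7.27 with a median of 6.63 in the high group and from 6.88 to 7.47 with a median of 7.10 in the low group. The low group was narrow and all 6 of its pigs lay above the high mean, while the high group was wide, with high pigs 2, 3 and 4 at 6.40 or below and high pig 1 among the highest of all. Means were 6.65 ± 0.43 and 7.12 ± 0.20 (SD, n = 6 each), and differed by 0.47 ± 0.18 (SE; limma adjusted p = 0.796). It was 0.53 within the lower and 0.35 within the higher run, and between 0.36 and 0.62 with 1 pig left out. The unadjusted p stayed under 0.05 in 8 of those 12 fits, and not without high pig 2, 3 or 4 or low pig 5.

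COX6C, another small nuclear-encoded subunit, was measured by 2 probe sets above the background range. The brighter one, at 9.19, differed by 0.11 ± 0.07 (SE). The other one, at 9.03, had means of 8.85 ± 0.22 in high and 9.21 ± 0.19 in low pigs (SD, n = 6 each) and a difference of 0.35 ± 0.12 (SE; limma adjusted p = 0.775). Both probe sets were higher in low pigs, the dimmer one by the larger amount. COX6B and COX6A1, which stood furthest to the negative side, differed by -0.10 ± 0.09 and -0.06 ± 0.07 (SE). Over the 8 genes of complex IV, 4 were higher and 4 lower, with a median of -0.01.

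In complex V, ATP5O, the subunit that joins the catalytic head to the peripheral stalk and confers sensitivity to oligomycin, was dim, at 2.68 over all pigs. Its signals ran from 2.38 to 3.13 with a median of 2.91 in the high group and from 2.41 to 2.76 with a median of 2.49 in the low group. No low pig lay above the high mean, but the female high pig 5 lay among the low pigs and the female high pig 6, at 2.38, below all of them. The difference was -0.30 ± 0.12 (SE; limma adjusted p = 0.796), and it was -0.48 within the lower run of identifiers and 0.04 within the higher one. With 1 pig left out it lay between -0.38 and -0.24. The unadjusted p stayed under 0.05 in 7 of those 12 fits, and not without high pig 2, 3 or 4 or low pig 2 or 3. The other 11 genes tested in complex V differed by between -0.08 and 0.05, among them ATP5A1 with 0.05 ± 0.06 and ATP5B with 0.03 ± 0.07 (SE). ATP5S, in human a coupling factor named after ATP synthase, differed by 0.14 ± 0.12 (SE) at a signal of 4.85.

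Cell type markers were compared between the groups as well. The ranges of the mean marker signal in high and low pigs overlapped for all 9 marker lists. Among neuron markers 7 of 8 were higher in low pigs, with a median difference of 0.07 and a range of the list mean from 8.89 to 9.08 in high and from 8.98 to 9.18 in low pigs. Among oligodendrocyte markers 1 of 6 was, with a median of -0.10 and ranges from 10.27 to 10.49 and from 9.99 to 10.52. Larger median differences came from lists that lay within the background range, 0.26 for choroid plexus (3 of 4 higher in low pigs, list mean from 5.06 to 5.98 in high and from 5.51 to 6.19 in low pigs) and 0.22 for red blood cells (2 of 3 tested). At an unadjusted p under 0.05, 1 of 8 neuron and 1 of 4 choroid plexus markers were called, and none in the other lists. The share over all named genes was 5.49%. Over the 12 pigs the median correlation of NDUFAF4 with neuron markers was 0.37, with choroid plexus markers 0.25, with red blood cell markers 0.21 and with oligodendrocyte markers -0.41. It was 0.15 with astrocyte, 0.10 with microglia, 0.003 with endothelium, -0.06 with muscle and -0.13 with hypothalamus markers. These correlations span both groups, so they also carry the group differences of the lists. The part of these cell types in the difference of NDUFAF4 was not tested. In tissue as mixed as this, fewer cells of a type and less RNA per cell cannot be told apart.

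No respiratory chain gene passed the adjusted threshold between the sexes either. By limma with feed efficiency as a term, 0 of 58 genes passed the adjusted threshold (smallest adjusted p = 0.996), against 8 of all probe sets or 0.0224%, and 1 of 58 had an unadjusted p under 0.05, against 3.95% of named genes. That gene was ATP5G1, which encodes a c subunit of the proton-driven ring of ATP synthase. Its signals ran from 5.38 to 5.75 in males and from 4.99 to 5.62 in females, with low pig 4 the 1 female above the lowest male. Means were 5.58 ± 0.14 and 5.27 ± 0.21 (SD, n = 6 each), and differed by -0.30 ± 0.11 (SE) for females minus males. Sex is partly confounded with the run of identifiers, since all 6 males and only 2 females were in the lower run. Those 2 females stood at 5.35 and 5.62, and the 4 females of the higher run between 4.99 and 5.33. With 2 females in the lower run, the 2 factors cannot be told apart with confidence, for this gene or the others named for sex. ATP5G2 and ATP5G3 encode the same mature protein, and they differed by -0.19 ± 0.15 and -0.05 ± 0.10 (SE). The next smallest p-values were those of SDHD with 0.13 ± 0.07, NDUFB11, a membrane arm subunit encoded on the X chromosome in human, with -0.12 ± 0.07, and NDUFA4L2 with -0.25 ± 0.12 (SE).

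Whether the feed efficiency difference was unlike in males and females was tested by the interaction term. By limma 0 of 58 genes passed after adjustment (smallest adjusted p = 0.826; background 0.0%), and 0 of 58 had an unadjusted p under 0.05, against 5.25% of named genes. The smallest p-values were those of NDUFB10, NDUFC1, NDUFS4 and NDUFV3. NDUFB10, an accessory membrane arm subunit, differed by -0.24 in males and by 0.29 in females, an interaction of 0.54 ± 0.25 (SE), at a signal of 5.22. NDUFC1 differed by 0.23 in males and by -0.06 in females, an interaction of -0.29 ± 0.14 (SE). For NDUFS4 the values were 0.44 in males and 0.05 in females, an interaction of -0.39 ± 0.22 (SE). NDUFV3, a subunit of the NADH-oxidising module, showed -0.18 and 0.31, an interaction of 0.49 ± 0.28 (SE). With 3 pigs per cell these intervals were wide.

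The pigs differed little in the level of the pathway as a whole. Taking each gene's deviation from its mean over pigs, the median over the 58 genes ran from -0.05 to 0.02 in high and from -0.08 to 0.08 in low pigs. The extremes were 2 low females, pig 6 at -0.08 and pig 4 at 0.08, so the low group spanned the high group. Over the 28 genes above the background range pig 6 stood at -0.11 and pig 4 at 0.09. The same pigs were the lowest and the highest for complex I, at -0.10 and 0.09, and for complex II, at -0.16 and 0.07. Over all named genes the medians per pig lay between -0.01 and 0.02. Over named genes above the background range they lay between -0.03 and 0.05, with low pig 6 at -0.02 and low pig 4 at 0.04. No complex had groups that were apart, the assembly factors included, whose medians ran from -0.21 to 0.03 in high and from -0.02 to 0.11 in low pigs.

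**Figure D4:**
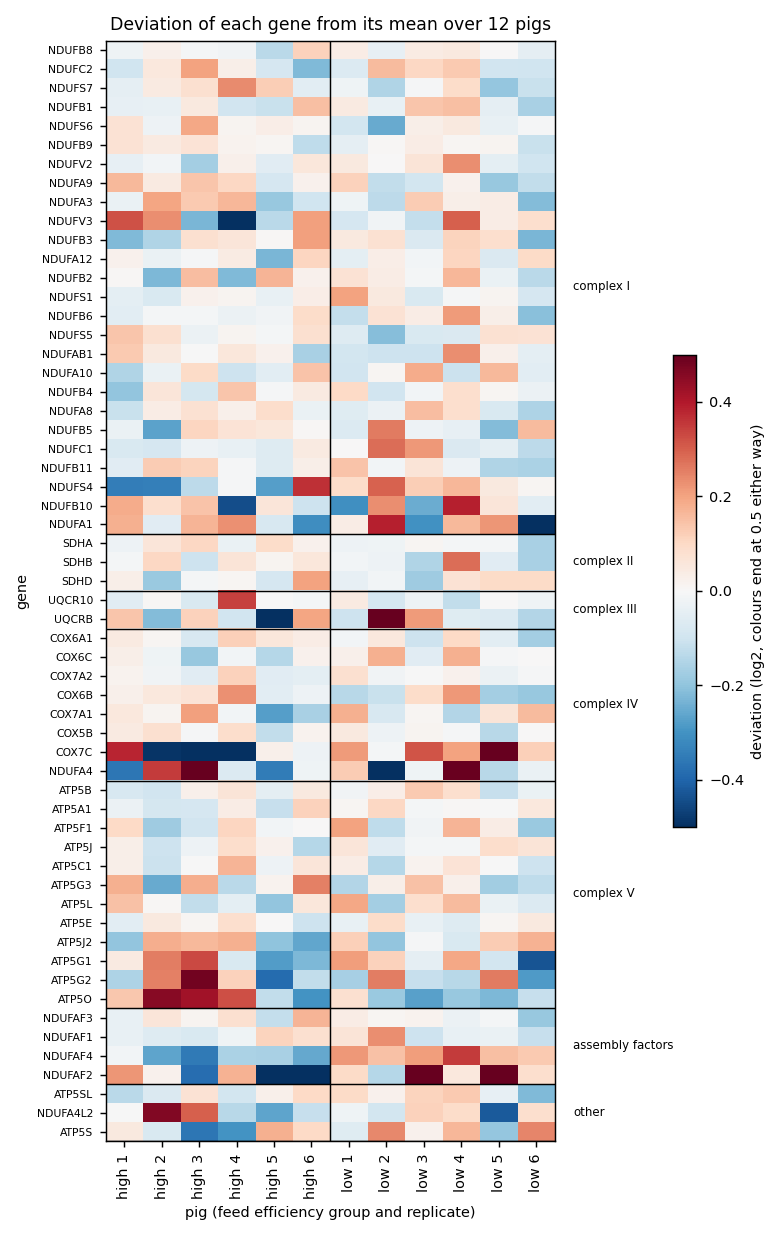
Deviation of each tested gene (rows, grouped by complex) from its own mean over 12 pigs (columns, by feed efficiency group and pig number), in log2 units, red above and blue below the mean, with colours ending at 0.5 either way. The row of NDUFAF4 is below its mean in all high and above it in all low pigs. It is nearly white in high pig 1, whose signal of 4.38 was close to the mean of 4.39. Strong colours lie in dim genes such as NDUFAF2 and NDUFA4, and also in some pigs for the brighter COX7C, UQCRB and NDUFV3.

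Pigs of the same group and sex were closely alike in these genes. The median residual SD was 0.116 over the 58 genes, against 0.177 over all named genes, and 0.105 over the 28 genes above the background range, against 0.121 over named genes above it. It was lowest for NDUFB9, a complex I subunit, at 0.058. The lowest value in complex IV was that of COX7A2 at 0.060 and in complex V that of ATP5A1 at 0.069.

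Signals of respiratory chain genes varied together only weakly from pig to pig, with like medians within a complex and across complexes. Over 12 pigs the median Pearson correlation was 0.08 over all 1653 pairs of the 58 genes, against 0.002 over all pairs of named genes. It was 0.08 for the 429 pairs within a complex, the assembly factors counted as 1 complex. It was also 0.08 for the 1056 pairs across complexes, pairs with the 3 tested genes outside the complexes set aside. Which of the 2 was higher changed with the setting: within and across stood at 0.14 and 0.12 for residuals after the group means, at 0.09 and 0.06 by Spearman's rho and at 0.15 and 0.14 with equal array medians, and the difference was not tested. By complex the median was 0.09 within complex I, 0.16 within complex IV, 0.03 within complex V and -0.08 among the assembly factors. Pairs with a correlation above 0.6 numbered 57, or 3.45%, against 2.66% of all pairs of named genes. Restricting both sides to genes above the background range raised the median to 0.19 over 378 pairs, with 0.18 within and 0.19 across complexes, against 0.05 over named genes above the range. Of these 378 pairs 19, or 5.03%, exceeded 0.6, against 4.85%. The values of a pair come from the same arrays and share whatever sets 1 array apart. Brightest and next brightest probe sets of the same gene had a median correlation of 0.02 over 18 genes of the set. It was 0.31 over the 6 genes with both above the background range. A weak correlation between the signals of 2 genes thus does not show that their transcripts varied apart.

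**Figure D5:**
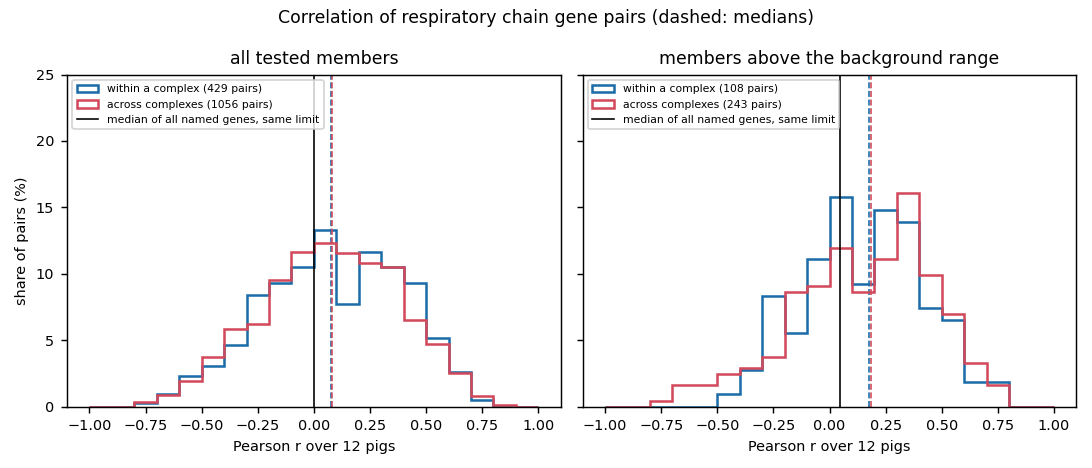
Share of gene pairs (percent) by Pearson correlation over 12 pigs, for pairs within a complex (blue) and across complexes (red), with all tested genes on the left and those above the background range on the right; dashed lines are medians and the black line the median of all named genes under the same limit. The blue and red medians lie together, at 0.08 and 0.08 on the left and 0.18 and 0.19 on the right.

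The most correlated pairs joined different complexes. NDUFS4 and ATP5A1 had r = 0.85 and rho = 0.75 over 12 pigs, NDUFB1 and ATP5SL 0.84 and 0.83, SDHB and COX6A1 0.80 and 0.80, and NDUFS7 and COX6B 0.79 and 0.75. ATP5SL, despite its symbol, is known in human as a factor for the distal membrane arm of complex I, the arm that holds NDUFB1. Permutation p-values of r ran from 8.0e-04 to 0.00217, and of rho from 0.00127 to 0.00744. After adjustment over the 1653 pairs those of r lay between 0.43 and 0.521 and those of rho between 0.70 and 0.756. Without the 2 pigs farthest from the median of the first gene, r was 0.88, 0.79, 0.77 and 0.63 in the order given, and within the lower run of identifiers (8 pigs) 0.79, 0.88, 0.75 and 0.83. The 2 most negative pairs were NDUFB10 with UQCR10, at r = -0.79 and rho = -0.76 (adjusted permutation p = 0.182 and 0.756), and NDUFA3 with ATP5S, at -0.77 and -0.87 (adjusted permutation p = 0.729 and 0.70). Without the 2 farthest pigs they stood at -0.71 and -0.69, and within the lower run at -0.81 and -0.70. By r or by rho, 0 of the 1653 pairs passed the adjusted threshold.

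The genes whose signal followed the rest of the pathway best were COX6B, with a median correlation of 0.26 with the other 57 genes, NDUFAF3 with 0.25, NDUFA3 with 0.24 and NDUFB6 with 0.23. Those that followed it least were ATP5S with -0.19, ATP5J, a peripheral stalk subunit, with -0.15, ATP5E, the epsilon subunit, with -0.12, and COX7C with -0.10. The closest partner of COX7C was NDUFAF4, at 0.72, both of them standing higher in low pigs.

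Mitochondrial genes outside the respiratory chain did not pass the threshold either. Of 82 listed genes of assembly, of the citrate cycle and of mitochondrial biogenesis, 36 had a named probe set and were tested. Of these 21 were higher and 15 lower in low pigs, with a median difference of 0.02. By limma 0 passed after adjustment, against 0.0% of all probe sets. At an unadjusted p under 0.05, 0 of the 36 were called, against 5.49% of named genes. At that share few calls are due among 36 genes. No gene encoded in mitochondrial DNA and no complex II assembly factor was named, so these are not analysed here. Among further complex I assembly factors, TMEM126B differed by 0.21 ± 0.12 and ACAD9 by -0.13 ± 0.15 (SE). For complex III, BCS1L, which inserts the iron-sulfur subunit, differed by -0.10 and TTC19 by -0.02. For complex IV, SCO2, which delivers copper, differed by -0.23 ± 0.12 and LRPPRC, which stabilises mitochondrial messenger RNA, by 0.12 ± 0.08 (SE). For complex V, the assembly factor ATPAF2 differed by -0.17 ± 0.11 and the inhibitor ATPIF1 by 0.06 ± 0.08 (SE). CS, citrate synthase, stood at 9.94 ± 0.07 in high and 10.02 ± 0.06 in low pigs (SD, n = 6 each), and FH, fumarase, differed by 0.07 ± 0.07 (SE). GABPA, a subunit of a transcription factor of respiratory chain genes, differed by 0.27 ± 0.14 and TFAM, which packages and transcribes mitochondrial DNA, by 0.22 ± 0.12 (SE), with limma adjusted p = 0.813 and 0.819.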

How the data were processed

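The values are the log2 signals that the authors deposited, 1 per probe set and pig. The log2 scale was read from their range, since no label states it. GCOS version 1.1.1 is named in the submitters' processing notes, with background correction, summary and normalization not given in the sources used here. Precision is limited by the number of arrays, and p-values measure the spread between these pigs.

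The 123 control rows and the 25% of probe sets with the lowest means (limit 2.43) were left out, which left 35791. Symbols came from the platform annotation; NUDFV2 was read as NDUFV2 through a RefSeq synonym, and the other 60 are RefSeq symbols. Feed efficiency (with sex as a term), sex, and their interaction (4 group means) were fitted by lmFit and eBayes of limma (version 3.58.1, under R 4.3.3) over all probe sets, with Benjamini-Hochberg adjustment and a threshold of 0.05. Counts at an unadjusted p under 0.05 use 1 probe set per gene. Correlations of named pairs were tested two-sided by permutation with 100000 resamples. The fits were tested on simulated data. Alternatives were other filters on dim probe sets, normalizations, fit settings and terms, averaged probe sets, and leaving out each pig.

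Named genes are all NDUFAF genes, the 8 smallest p-values per direction for feed efficiency, 4 each for sex and the interaction, the brightest and dimmest gene of each complex, isoform pairs, extreme correlations, genes with an outlying pig and 2 genes of each other mitochondrial list; other genes were named after their values were seen. Members and lists were chosen with earlier results of these data known.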

Additional observations from a re-analysis of the deposited data

Results flagged for a closer look

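In 6 of the 122 groups of 6 pigs examined (61 genes in each feed efficiency group), 1 pig lay far from the other 5 of its group by Dixon's criterion, and chance gives about 1 in 20. NDUFB9, the gene with the narrowest spread, was lowest in high pig 6 at 8.35, where the other high pigs lay between 8.49 and 8.55. NDUFB6, a membrane arm subunit of complex I, was highest in the same pig at 7.52. SDHA and NDUFAF3 were lowest in low pig 6, at 9.59 and 7.57. SDHB was highest in low pig 4 at 9.26. UQCR10 was highest in high pig 4 at 9.46, where the other high pigs lay between 9.04 and 9.12. Low pigs 6 and 4 were also the lowest and the highest for the median over the 58 genes. All 6 flagged values are from females.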

How the results depend on the processing

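No gene called without adjustment changed sign under any alternative in which it was tested, and 0 genes of the set passed the adjusted threshold for feed efficiency, sex or the interaction under any of them; at an unadjusted p under 0.05, 4, 1 and 0 were called. Of the comparisons with alternatives, 360 values kept their side of the threshold or stayed within the spread, 25 counts rose, 6 counts fell and 16 values moved. The count called at an unadjusted p for feed efficiency was 2 with the dimmest 50% left out, which removes NDUFAF2 and ATP5O. Named genes so called were then 606 of 10202, against 690 of 12561 in the main fit. With 1 pig left out the count lay between 1 and 4, and that of named genes between 505 and 875. It was 1 without high pig 2 or 3, where 513 and 544 named genes were called. With a gene's probe sets averaged it was 3 (COX6C, COX7C and NDUFS4), and NDUFAF4 was then not tested. The count for sex was 2 with the dimmest 50% left out, with quantile normalization or with equal array medians, 3 with averaged probe sets, and between 1 and 3 with 1 pig left out. Named genes called for sex numbered 414 of 10202, 509 of 12559, 467 of 12561 and 471 of 10248 in the order given. With 1 pig left out they numbered between 446 and 586, against 496 in the main fit. The count for the interaction was 1 with the dimmest 50% left out, equal array medians, trend and robust settings, array weights or averaged probe sets, and between 0 and 2 with 1 pig left out. Named genes called for it numbered 569 of 10202, 715, 689 and 623 of 12561, and 657 of 10248 in the order given. With 1 pig left out they numbered between 482 and 850, against 660 in the main fit. The median difference of the assembly factors, 0.20, was 0.0040 with the dimmest 50% left out, -0.026 with averaged probe sets and -0.056 above the background range, where NDUFAF3 alone remains. The median correlation over all pairs, 0.08, was 0.14 with equal array medians and 0.19 above the background range; across complexes it was 0.14 and 0.19, and within complexes 0.15 and 0.18. Within complex V it was 0.03, but -0.04 with quantile normalization, 0.11 for residuals after the group means and 0.24 above the range. Other medians near 0 took either sign: the differences of all genes of the set and of complexes I, III, IV and V lay between -0.07 and 0.08, the correlation within complex IV, 0.16, was -0.05 with averaged probe sets, and that among the assembly factors, -0.08, was 0.04 with equal array medians. Leaving out high pig 5 turned the correlations within complexes IV and V to -0.04 and -0.003, and leaving out high pig 6 that among the assembly factors to 0.10. The cause of these shifts was not tested. Averaging probe sets lowered the median signal to 7.37 in complex I, 7.96 in II, 7.37 in III, 6.17 in IV, 5.43 in V and 5.17 for the assembly factors. Equal array medians moved the median difference of all genes from -0.002 to 0.02. Signals within the background range limit what can be said of 33 of the 61 genes. No paired analysis was possible because the labels give no replicate numbers that link pigs of the 2 groups.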

Other observations

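Probe sets of the same respiratory chain gene often did not follow each other from pig to pig. In 18 genes the brightest probe set could be set against the brightest other one that was tested, and the median Pearson correlation over 12 pigs was 0.02, with 9 of 18 above 0. It ran from -0.38 for NDUFV3 to 0.62 for NDUFV2. For 5523 named genes with 2 such probe sets the median was 0.20. Where both probe sets lay above the background range, the median was 0.31 over 6 genes of the set and 0.47 over 672 named genes. ATP5G2, a c subunit gene, had 2 probe sets of like signal, 4.24 and 4.14, whose differences between low and high pigs were -0.06 and 0.82. Both lay within the background range.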
